A study of Rattus norvegicus with 6 samples.

Results

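Direct pathway medium spiny neurons of the rat striatum were represented by 872 of the 73649 nuclei that passed quality limits, and are called D1 nuclei here after the dopamine receptor they carry. They were chosen by their UMI counts, a UMI being a molecular tag that counts a single captured RNA molecule. A D1 nucleus had at least 500 UMIs, 250 to 5000 detected genes and at most 5% mitochondrial UMIs. It had at least 5 UMIs of the neuronal genes Snap25, Syt1 and Rbfox3 together, at least 3 of the medium spiny neuron genes Rarb, Rgs9 and Ppp1r1b together, and at least 1 of Drd1. It had no UMI of the D2-type genes Drd2 and Adora2a or of the glutamatergic genes Slc17a7 and Slc17a6, and at most 4 of Tshz1, Casz1, Chst9 and Otof together, genes of a rarer medium spiny population. The same limits with the receptors exchanged gave 2940 D2 nuclei, the indirect pathway counterpart.

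Medium spiny neurons are the GABAergic projection neurons that make up most of the striatum. Those of the direct pathway project to the output nuclei of the basal ganglia, express the dopamine receptor Drd1, which is coupled through the G protein encoded by Gnal to adenylyl cyclase 5 and cAMP, and release the peptides encoded by Tac1 (substance P) and Pdyn (dynorphin). Those of the indirect pathway express Drd2 and Adora2a and the enkephalin precursor Penk. The striatum lies in the territory of the middle cerebral artery, and its projection neurons are known to be sensitive to ischemia.

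Single-nucleus RNA sequencing was performed on wild-type male Wistar rats, 12 weeks old, 48 h after permanent occlusion of the right middle cerebral artery by a filament (MCAO) or after Sham surgery. The 11 rats fell into Sham (4 rats), moderate infarction (mMCAO, 3 rats) and severe infarction (sMCAO, 4 rats), and the hemispheres of each set were pooled and sequenced apart. This gave 6 libraries in 3 groups of 2, namely Sham (left and right hemisphere), MCAO contra (left hemisphere of mMCAO and of sMCAO) and MCAO ipsi (right, lesioned hemisphere of mMCAO and of sMCAO). Nuclei came from dissected coronal slices, so tissue lost to necrosis and tissue outside the striatum both enter the shares given below. Where a library of a compared group is left out below, that arm is a single library, assumed to vary like the other groups. Both Sham libraries came from the same rats and both MCAO libraries of a group differed in severity, so p-values measure the spread between these libraries and not between independent animals. Library totals ranged from 33012945 to 52513380 UMIs. Values by library are given from here on in a fixed order, left then right hemisphere of Sham, then contralateral and ipsilateral hemisphere of mMCAO, then the same of sMCAO. The D1 nuclei numbered 157, 126, 226, 110, 145 and 108, and their UMIs summed to 503861, 344466, 890625, 407265, 536848 and 717222. The median UMI count of a D1 nucleus was 2925, 2178.5, 3597.5, 3290, 3305 and 6496, and the sMCAO ipsi library stood apart with the deepest D1 nuclei of all 6. Over all nuclei its median was the lowest, at 2059 UMIs against 2271.5 to 3360 in the other libraries. Totals, shares and named calls are therefore also given with nuclei thinned to 2000 UMIs. Thinning leaves out nuclei under 2000 UMIs, which reduced the libraries from 13125, 13626, 14491, 12948, 10794 and 8665 nuclei to 9440, 8247, 10446, 8781, 7410 and 4411, so it changes both the depth and the nuclei kept.

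The receptor count behind the choice was small. Drd1 had exactly 1 UMI in 140, 119, 197, 96, 122 and 83 of the D1 nuclei, exactly 2 in 17, 7, 26, 12, 21 and 19, and 3 or more in 0, 0, 3, 2, 2 and 6. The summed Rarb, Rgs9 and Ppp1r1b count had a median of 11, 8, 13, 10, 11 and 21 UMIs. At the limit of 3 UMIs, 11, 11, 6, 6, 7 and 2 members lay just inside and 6, 5, 11, 3, 12 and 5 nuclei with 2 UMIs lay just outside. Many nuclei of the medium spiny gate had no receptor UMI at all, 1165, 1342, 949, 859, 646 and 346, and could be placed in neither pathway. A Drd1 UMI was found in 8.63%, 6.30%, 12.9%, 8.0%, 11.9% and 16.8% of the medium spiny gate. In neurons without any UMI of Rarb, Rgs9 or Ppp1r1b, the share was 1.67%, 0.869%, 1.61%, 1.40%, 1.50% and 2.09%. Their median depth was nevertheless higher in all 6 libraries, at 3658.5, 2684, 4185.5, 4345, 3484 and 7195 UMIs against 2814, 2033.5, 3465, 3072, 3039 and 5771 in the medium spiny gate. These neurons may include some that express Drd1, and the part of stray UMIs in their share was not tested. Only 1 cell barcode was shared between D1 nuclei of different libraries.

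The genes of the choice had levels, in CPM (UMIs of a gene per 1000000 UMIs) over the D1 nuclei of a library, that are a description only. Drd1 stood at 345, 386, 290, 309, 324 and 197 CPM. Every member had to hold a Drd1 UMI whatever its depth, so this level is tied to depth, and sMCAO ipsi had the deepest D1 nuclei. Rarb, a retinoic acid receptor of striatal neurons, stood at 2520.5, 2180.2, 2457, 2269, 2241 and 2676 CPM. Rgs9, which speeds the shut-off of striatal G protein signals, was lowest in both MCAO ipsi libraries, at 602 and 626 CPM against 801 to 1179 CPM in the other 4. Ppp1r1b, the phosphatase inhibitor DARPP-32, ranged from 72.6 CPM in Sham R to 190 CPM in sMCAO contra, with the MCAO ipsi libraries at 90.8 and 110 CPM.

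Genes that the choice did not use had the pattern known for direct pathway neurons. D1 nuclei were set against D2 nuclei of the same library. This is the contrast the receptors define, so the counts and values describe the members and are no independent evidence for the label. Of 9709 genes, 146 (1.50%) were at least 0.6 higher on the log2 scale and 80 (0.824%) at least 0.6 lower in D1 nuclei, at an adjusted p under 0.05 in edgeR's quasi-likelihood test, with the genes of the gate left out. DESeq2 gave 157 genes in all, and 186 passed with members thinned to 2000 UMIs, with 37 of the 39 named genes still measured among them. All 8 measured genes of the D1 identity list were among the higher ones, and 5 of 6 of the D2 identity list, namely Penk, Ptprm, Gpr52, Gpr6 and Upb1, among the lower ones. Ebf1, a transcription factor of developing direct pathway neurons, stood at 250, 215, 341, 381, 400 and 360 CPM in D1 nuclei and 23.4, 11.8, 7.95, 14.7, 19.3 and 4.62 CPM in D2 nuclei, a log2 difference of 4.55 ± 0.14 (SE). Tac1 stood at 39.7, 29.0, 69.6, 78.6, 68.9 and 65.5 CPM in D1 nuclei and between 1.54 and 4.90 CPM in D2 nuclei (log2 difference 4.12 ± 0.23). Neither gene had an overlap between the cell types in any of the 6 libraries. Pdyn was at 19.8, 20.3, 20.2, 34.4, 14.9 and 36.3 CPM in D1 nuclei (log2 difference from D2 nuclei 3.93 ± 0.39). The muscarinic receptor gene Chrm4, which opposes Drd1 signalling, was at 49.6, 52.3, 65.1, 24.6, 46.6 and 50.2 CPM (3.48 ± 0.23), and the transcription factor gene Isl1 at 21.8, 17.4, 21.3, 7.37, 26.1 and 20.9 CPM (3.61 ± 0.41). Both were lowest in mMCAO ipsi. Slc35d3, a transporter-family gene tied to dopamine receptor trafficking, differed by 4.04 ± 0.37, Foxp2 by 1.48 ± 0.05 and the patch compartment gene Oprm1, the mu opioid receptor, by 1.12 on the log2 scale. On the other side, Penk was at 0, 2.90, 10.1, 4.91, 5.59 and 5.58 CPM in D1 nuclei against 62.3 to 246 CPM in D2 nuclei (−4.77 ± 0.19). The delta opioid receptor gene Oprd1 (−2.92 ± 0.22), the kainate receptor gene Grik3 (−2.65 ± 0.13) and Gucy1a1, a subunit of the nitric oxide receptor guanylyl cyclase (−1.63 ± 0.07), were also lower in D1 nuclei. Markers of other cell types were among the calls too. Of 3 measured astrocyte markers, 2 (Slc1a2 and Gfap) were lower in D1 nuclei. Of 6 measured oligodendrocyte markers 0 passed and 0 were positive, with a median of −0.45 and 3 at an unadjusted p under 0.05. The glutamatergic marker Cux2 and the interneuron markers Npy and Adarb2 were higher in D1 nuclei.

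**Figure D1:**
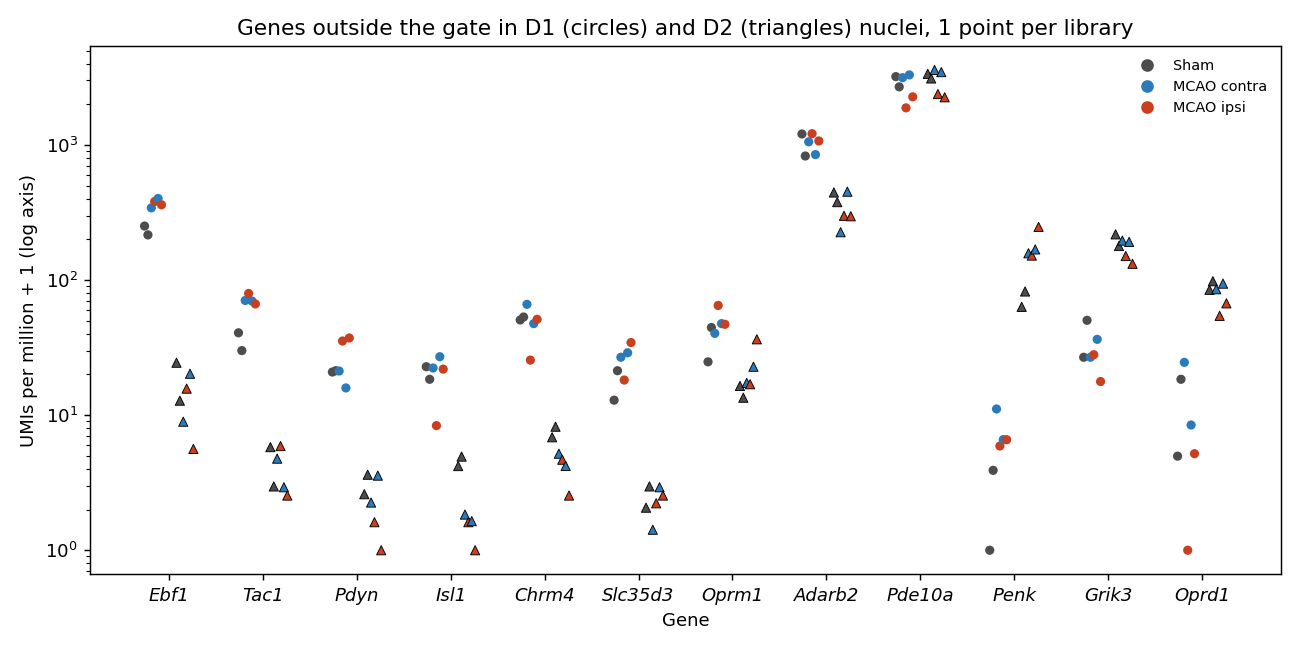
Levels of 12 genes in D1 nuclei (circles) and D2 nuclei (triangles) of the 6 libraries, as CPM plus 1 on a log axis, with Sham in grey, MCAO contra in blue and MCAO ipsi in red. Ebf1 in D1 nuclei sat at 215 CPM or above in all 6 libraries while D2 nuclei stayed at 23.4 CPM or below, and Penk showed the opposite arrangement.

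The members were not uniform. Adarb2, an RNA editing family gene best known as a marker of a class of cortical interneurons, was at 1205, 827, 1054, 1210.5, 848 and 1069 CPM in D1 nuclei and at 225 to 450 CPM in D2 nuclei (log2 difference 1.61 ± 0.09). It was carried by part of the members, since 22.9%, 16.7%, 27.4%, 21.8%, 17.9% and 47.2% of D1 nuclei had 5 or more Adarb2 UMIs, against 4.13% to 7.30% of D2 nuclei. This fixed limit moves with depth. After thinning to 2000 UMIs the shares were 17.3%, 5.75%, 13.6%, 17.9%, 10.1% and 13.9% of D1 nuclei, with sMCAO ipsi no longer apart, and 1.86% to 4.52% of D2 nuclei. Ebf1 was detected in 19.4%, 23.8%, 40.3%, 33.3%, 46.2% and 64.7% of these Adarb2-high members and in 43.0%, 35.2%, 53.7%, 59.3%, 61.3% and 50.9% of the other members. The median depth was 2658, 3665, 3687, 3497.5, 3752.5 and 6925 UMIs in the Adarb2-high members and 2988, 2141, 3564, 3243, 3271 and 5834 UMIs in the others, and the difference in Ebf1 was not tested. Whether they are a distinct population was not tested, and the comparisons below were repeated without them. A doublet score in the top 5% of the library was held by 5.10%, 15.1%, 8.41%, 11.8%, 9.66% and 13.0% of D1 nuclei.

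The sequence upstream of 3 genes is shown because Drd1 defines the members, Tac1 is the peptide gene that marks them and Pde10a, the cyclic nucleotide phosphodiesterase of medium spiny neurons, is described below. Each is the 250 bases before the gene's annotated start in the gene's own direction, from RefSeq on GRCr8. This is a later build than the mRatBN7.2 of the counts. Whether transcription begins at the annotated start was not tested, so a stretch may not be the promoter in use. Capitals mark TGACG or its reverse CGTCA, the core of the cAMP response element, searched on both strands. Drd1 is upstream on the plus strand at chr17:10546354-10546603, Tac1 on the plus strand at chr4:36645333-36645582 and Pde10a on the minus strand at chr1:54765669-54765918.
Drd1: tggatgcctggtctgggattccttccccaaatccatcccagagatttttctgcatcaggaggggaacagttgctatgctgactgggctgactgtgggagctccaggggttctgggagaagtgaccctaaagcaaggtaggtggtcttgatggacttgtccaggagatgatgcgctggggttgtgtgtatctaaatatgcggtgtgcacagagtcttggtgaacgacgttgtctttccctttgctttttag
Tac1: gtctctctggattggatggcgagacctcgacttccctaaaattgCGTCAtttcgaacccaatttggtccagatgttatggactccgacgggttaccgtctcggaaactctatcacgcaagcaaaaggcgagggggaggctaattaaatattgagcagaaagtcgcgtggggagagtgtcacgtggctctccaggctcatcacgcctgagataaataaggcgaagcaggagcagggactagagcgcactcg
Pde10a: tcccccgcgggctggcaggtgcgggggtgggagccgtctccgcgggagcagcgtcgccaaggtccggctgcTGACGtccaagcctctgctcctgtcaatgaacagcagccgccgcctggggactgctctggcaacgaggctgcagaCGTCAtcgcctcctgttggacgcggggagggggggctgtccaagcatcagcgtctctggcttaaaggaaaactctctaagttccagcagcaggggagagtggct
The letters occurred 0 times before Drd1, 1 time before Tac1 and 2 times before Pde10a. Of 27457 rat promoters of the same length, 19.0% held a match. The share was 25% of the 100 matched promoters of genes higher in D1 than in D2 nuclei and 11.7% of the 60 of genes lower in them. Among the genes called in the comparisons below, it was 38.9% of 18 that fell and 13.6% of 22 that rose against MCAO contra, and 41.7% of 24 that fell and 46.2% of 13 that rose against Sham. These matches describe letters and not binding, and were not tested.

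The share of D1 nuclei in a library addresses whether direct pathway neurons were fewer in the lesioned hemisphere. D1 nuclei made up 1.20%, 0.925%, 1.56%, 0.850%, 1.34% and 1.25% of all nuclei. With moderate infarction the ipsilateral share was 0.545 times the contralateral share (95% interval 0.434 to 0.683), and the D2 share was 0.804 times (0.714 to 0.905). With severe infarction the ratio for D1 nuclei was 0.928 (0.724 to 1.19), an interval that holds no change, while that for D2 nuclei was 0.530 (0.450 to 0.624). The right over left ratio in Sham rats, where no lesion was made, was 0.773 (0.612 to 0.976) for D1 and 1.04 (0.934 to 1.17) for D2 nuclei. The intervals cover counting error only, and each ratio has a single library on each side. As groups, the MCAO ipsi libraries averaged 1.05% and the MCAO contra libraries 1.45%, a difference of −0.403 percentage points with no overlap and an SD of at most 0.281 within a group (exact permutation test, two-sided p = 0.333, the smallest that 2 against 2 libraries allow). The MCAO ipsi mean differed from the Sham mean of 1.06% by −0.0125 percentage points, with overlap. The MCAO contra mean lay 0.391 percentage points above the Sham mean, with no overlap (exact permutation test, two-sided p = 0.333). Among the nuclei that could be thinned to 2000 UMIs, of which neurons were 65.2% in sMCAO ipsi in place of 37.1% before, the D1 shares were 0.869%, 0.703%, 1.15%, 0.706%, 0.945% and 0.703%, and the ipsilateral over contralateral ratio was 0.615 with moderate and 0.744 with severe infarction. The thinned ratio for D2 nuclei was 0.805 and 0.739, and the Sham ratios were 0.81 for D1 and 0.783 for D2 nuclei. Among neurons alone the D1 share was 1.49%, 1.11%, 2.10%, 1.23%, 1.80% and 3.36%. The ratio for severe infarction was then 1.87, in a library with 3215 neuron-gated nuclei against 8077 on the contralateral side and with a median depth of 6876 UMIs a neuron against 3446. Among neurons that could be thinned, the D1 share was 0.934%, 0.745%, 1.27%, 0.764%, 1.04% and 1.08%, and the same ratio was 1.03. Fewer D1 neurons and less Drd1 RNA in each cannot be told apart in these shares, nor can either be told from the position of the dissection.

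D1 nuclei were 21.5, 16.9, 26.4, 19.6, 23.7 and 35.2 of every 100 D1 and D2 nuclei. The MCAO ipsi mean lay 8.16 above the Sham mean, within the SD of 11 between the MCAO ipsi libraries (exact permutation test, two-sided p = 0.667). The MCAO contra mean lay 5.83 above Sham with no overlap (exact permutation test, two-sided p = 0.333), which is the smallest p that 2 against 2 libraries allow. After thinning to 2000 UMIs the MCAO ipsi mean was no longer the higher, with a difference of −0.504, and the MCAO contra difference was 1.41. The D1 choice counts Drd1 alone, while the D2 choice counts Drd2 and Adora2a together. With at least 2 receptor UMIs and 5 of Rarb, Rgs9 and Ppp1r1b, D1 nuclei were 3.74, 1.90, 5.19, 3.80, 5.43 and 12.6 of every 100. The number thus moves with the receptor limit and does not give the proportion of the pathways in the tissue.

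**Figure D2:**
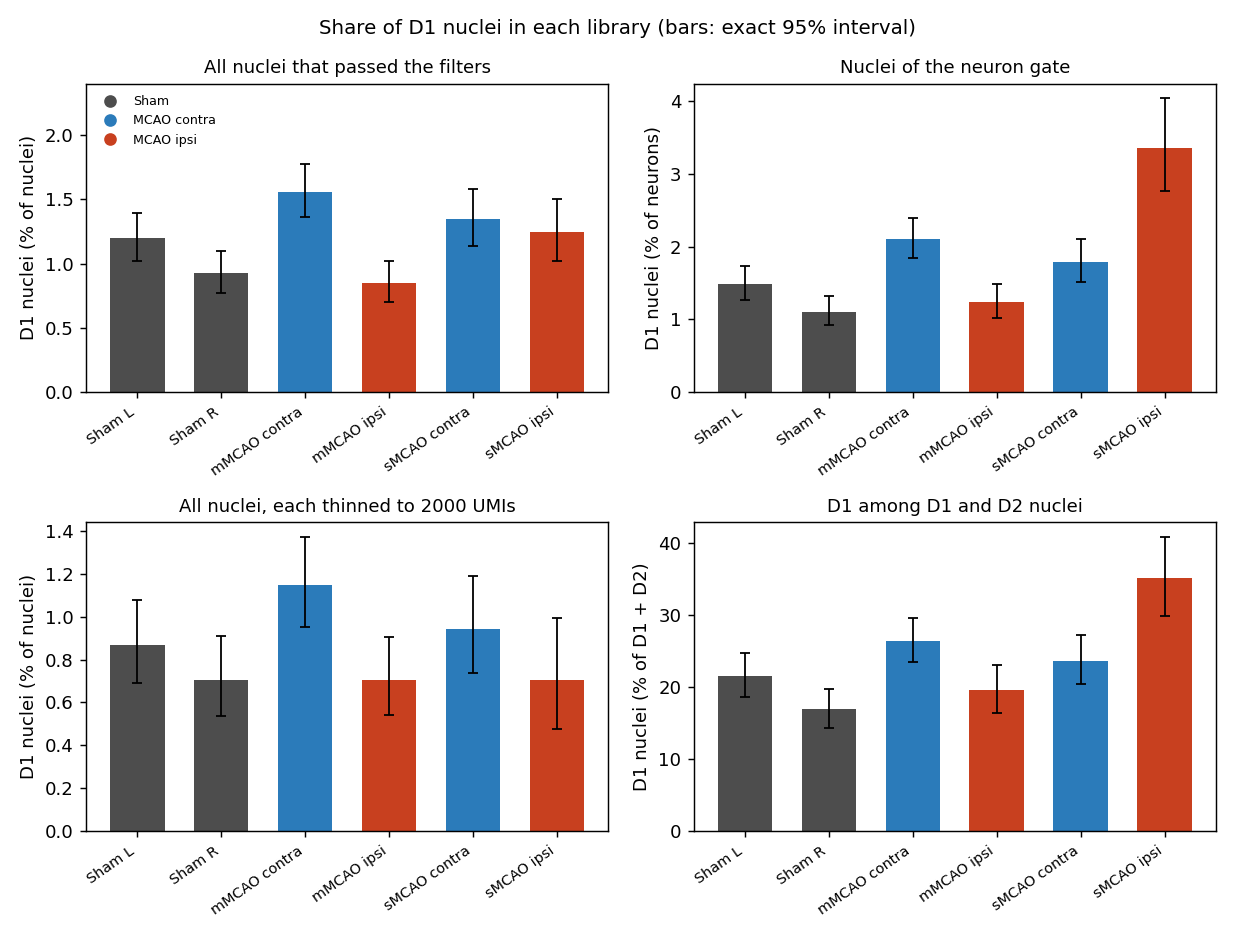
Share of D1 nuclei in each library as a percent of all nuclei, of neuron-gated nuclei and of nuclei thinned to 2000 UMIs, and as a percent of D1 and D2 nuclei together, with exact 95% binomial intervals that cover counting error only. The sMCAO ipsi bar is at 1.25% of all nuclei but 3.36% of neurons, where its nuclei were the deepest, and at 0.703% of the 4411 nuclei of that library that held at least 2000 UMIs and were thinned to that number.

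Lesioned and contralateral hemispheres of the same rats were compared first. The falls in D1 nuclei of the lesioned side included the medium spiny neuron genes Rasgrp2, Pde10a and Scn4b and the receptor genes Cnr1 and Chrm3, and the largest rises included Ptprc and Dock8, which are known from leukocytes. Of 6765 genes tested on summed UMIs, 33 (0.488%) rose and 25 (0.370%) fell in MCAO ipsi (edgeR quasi-likelihood test, Benjamini-Hochberg adjusted p under 0.05 and a log2 fold change of at least 0.6). Unadjusted p was under 0.05 for 393 rises and 374 falls, and DESeq2 called 2 genes in all. Under a stricter gate (2 or more Drd1 UMIs and 5 or more of Rarb, Rgs9 and Ppp1r1b, which leaves 7 to 29 D1 nuclei a library) 3 genes passed, and with members thinned to 2000 UMIs 35.

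Among the signalling genes, Rasgrp2, an exchange factor that activates Rap in response to calcium and diacylglycerol, stood at 97.7 and 83.8 CPM in MCAO contra and at 17.2 and 33.5 CPM in MCAO ipsi. It fell by 1.74 ± 0.28 (log2, SE; edgeR adjusted p = 0.00276), and the Sham libraries, at 79.4 and 61.0 CPM, were also above both lesioned ones. Pde10a, which breaks down cAMP and cGMP, stood at 3203, 2691, 3147, 1881, 3299 and 2269.9 CPM. It was lowest in both lesioned libraries and fell by 0.63 ± 0.12 against MCAO contra (edgeR adjusted p = 0.0060). Cnr1, the cannabinoid receptor that restrains release from medium spiny neuron terminals, was at 147, 92.9, 175, 125, 248 and 37.6 CPM and fell by 1.52 ± 0.29 (edgeR adjusted p = 0.0060). The mMCAO ipsi value of Cnr1 lay between the Sham values, so that only sMCAO ipsi was below all other libraries. Scn4b, a sodium channel beta subunit enriched in striatum, fell by 1.25 ± 0.26, with 88.7 and 80.1 CPM in MCAO contra against 44.2 and 30.7 CPM in MCAO ipsi. Camkk2, the kinase that switches on calcium/calmodulin-dependent kinases, fell by 1.21 ± 0.25, from 97.7 and 76.4 CPM to 39.3 and 37.6 CPM. The interleukin receptor family gene Il1rapl2 fell by 2.15 ± 0.41, at 343, 273, 293, 140, 218 and 6.97 CPM. Its low value in sMCAO ipsi, far under that of mMCAO ipsi, marks a wide spread between the lesioned libraries. Stum, Emid1, Slc26a8 and the transcriptional cofactor gene Zfpm2 had log2 changes of −1.17, −1.25, −1.21 and −1.61 and fell as well.

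Chrm3, a muscarinic receptor gene coupled to calcium release, stood at 193, 165, 145, 71.2, 216 and 85.0 CPM. Its lesioned values did not overlap the others and it fell by 1.14 ± 0.21 against MCAO contra and by 1.23 ± 0.23 against Sham (edgeR adjusted p = 0.0060 and 0.00459), the value against Sham being chosen after it was seen. Also chosen after its values were seen, Slc6a6, the taurine transporter, stood at 208, 206, 285, 165, 304 and 155 CPM and fell by 0.89 ± 0.16 against MCAO contra (edgeR adjusted p = 0.00555). Camk2a, the abundant kinase of the postsynapse, was at 314, 340, 366, 248, 391 and 230 CPM and fell by 0.67 ± 0.14, also chosen after its values were seen.

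Among the rises against MCAO contra, Synpr, a synaptic vesicle membrane protein, had the smallest adjusted p. It stood at 270, 334, 257, 535, 265 and 503 CPM, so both lesioned libraries were above the other 4. It rose by 0.99 ± 0.14 against MCAO contra and 0.74 ± 0.15 against Sham (edgeR adjusted p = 0.000917 and 0.00966). In all other nuclei of the same libraries Synpr was at 229, 224, 214, 286, 209 and 193 CPM. Kif17, a kinesin that carries glutamate receptors into dendrites, was at 29.8, 23.2, 24.7, 66.3, 27.9 and 73.9 CPM and rose by 1.44 ± 0.29 against MCAO contra and 1.33 ± 0.33 against Sham. Its level in all other nuclei stayed between 16.9 and 25.4 CPM. Synpr and Kif17 were chosen after their values were seen. Neither was called in the test below of whether the change from Sham differed between D1 and D2 nuclei.

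The largest rise against MCAO contra among the genes named was that of Ptprc, the leukocyte phosphatase CD45, which stood at 5.95, 0, 3.37, 27.0, 1.86 and 25.1 CPM in D1 nuclei and rose by 3.11 ± 0.70 against MCAO contra (edgeR adjusted p = 0.0259). Dock8, a guanine nucleotide exchange factor of leukocytes, was at 5.95, 5.81, 7.86, 41.7, 9.31 and 47.4 CPM and rose by 2.39 ± 0.44. The Src family kinase gene Lyn (2.07 ± 0.51), the cholesterol exporter gene Abca1 (1.98 ± 0.44), Creb5 (2.40), Sema3c (2.35), Agmo (2.09) and Lrmda (1.51) rose too. So did Tf, the iron carrier transferrin made by oligodendrocytes, by 1.65 ± 0.31, and Dcdc2c, which is listed under 2 gene identifiers and is uncertain, by 1.50. In the nuclei outside the D1 set, Ptprc stood at 0.99, 1.98, 3.97, 35.5, 6.1 and 96.8 CPM and Dock8 at 4.38, 4.6, 10.6, 53.2, 11.9 and 110 CPM. The 9 myeloid markers, of which only Ptprc had enough UMIs to be tested, together stood at 17.9, 20.3, 16.8, 63.8, 14.9 and 105 CPM in D1 nuclei. These were 9, 7, 15, 26, 8 and 75 UMIs, from 5, 3, 6, 6, 6 and 8 of the 9 markers. Ptprc was the most abundant in both lesioned libraries. Tmem119 was at 0 in both, and C1qa and Cd74 were at 0 in mMCAO ipsi. The 7 oligodendrocyte markers stood at 169, 151, 195, 172, 110 and 187 CPM, with no such step in the lesioned libraries. The part of free RNA or of attached cells in these rises was not tested.

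**Figure D3:**
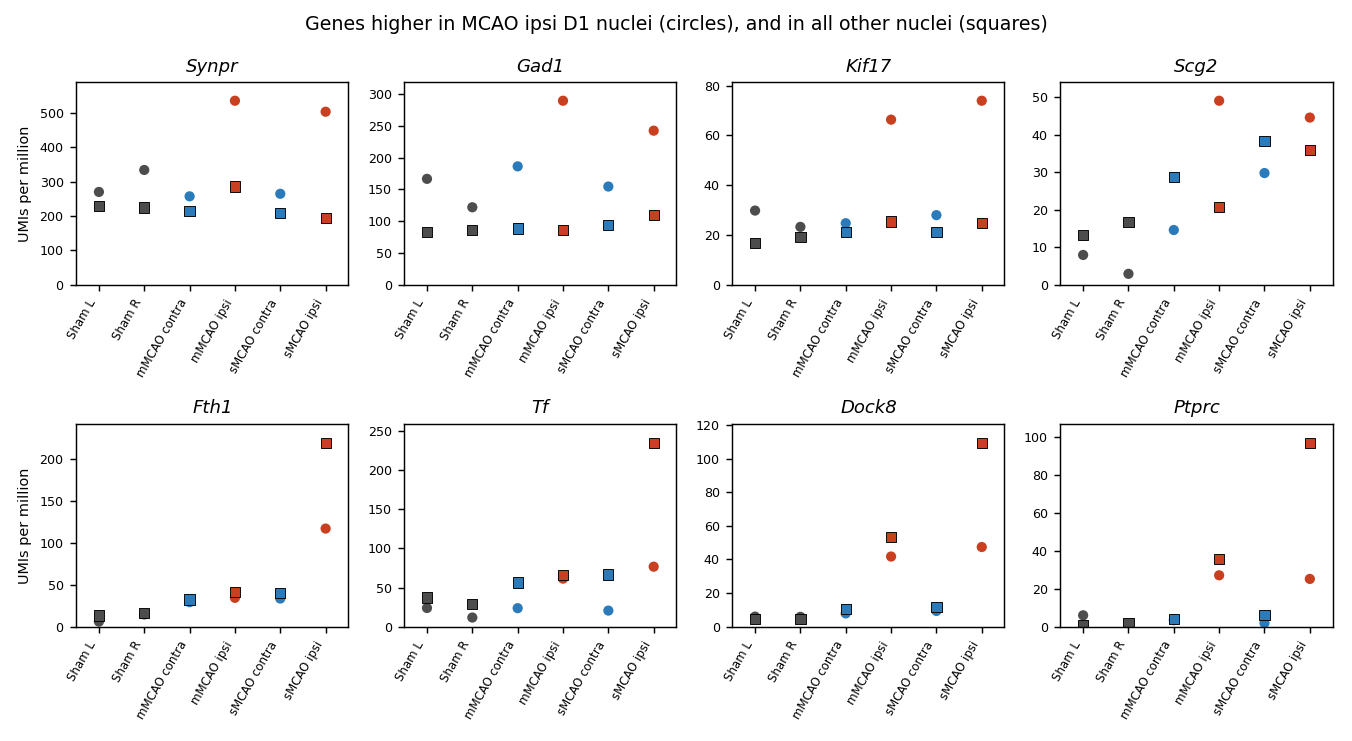
Levels of 8 genes by library in D1 nuclei (circles) and in all other nuclei (squares), in CPM, with Sham in grey, MCAO contra in blue and MCAO ipsi in red. Synpr and Kif17 were raised in D1 nuclei of both lesioned libraries with smaller movement in the other nuclei, which hold all other cell types together, D2 nuclei included. Ptprc and Dock8 were highest in the lesioned libraries in both sets.

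Without the members that carried 3 or more glial, myeloid or vascular UMIs (7, 9, 23, 12, 10 and 21 nuclei), 28 genes passed in place of 58. Of the 22 named calls still measured, 10 remained, namely Il1rapl2, Rasgrp2, Cnr1, Stum, Chrm3, Pde10a, Synpr, Kif17, Camk2a and Slc6a6. Without mMCAO contra 18 genes passed and without sMCAO contra 22, against 95 without Sham L, 96 without Sham R and 100 without mMCAO ipsi. Of the 27 calls named, 5 remained without mMCAO contra, namely Rasgrp2, Cnr1, Chrm3, Synpr and Slc6a6. Without sMCAO ipsi 84 genes passed but 11 of the 27 named calls remained. With the rat pool as a block, the calls of Lyn, Dcdc2c, Slc26a8, Ca12 and Fth1 were lost. With members thinned to 2000 UMIs, 8 of the 21 named calls still measured remained (Ca12, Chrm3, Il1rapl2, Pde10a, Rasgrp2, Slc6a6, Stum and Synpr), and those of Cnr1, Scn4b, Camkk2, Camk2a, Kif17 and Tf were among the 13 lost. Without the Adarb2-high members 15 of 22 remained, the calls of Abca1, Agmo, Fth1, Lrmda, Scn4b, Tf and Zfpm2 being lost, and the 59 genes called were 25 rises and 34 falls. In DESeq2 1 of the 27 named calls remained, and under the stricter gate 1 of the 11 still measured.

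**Figure D4:**
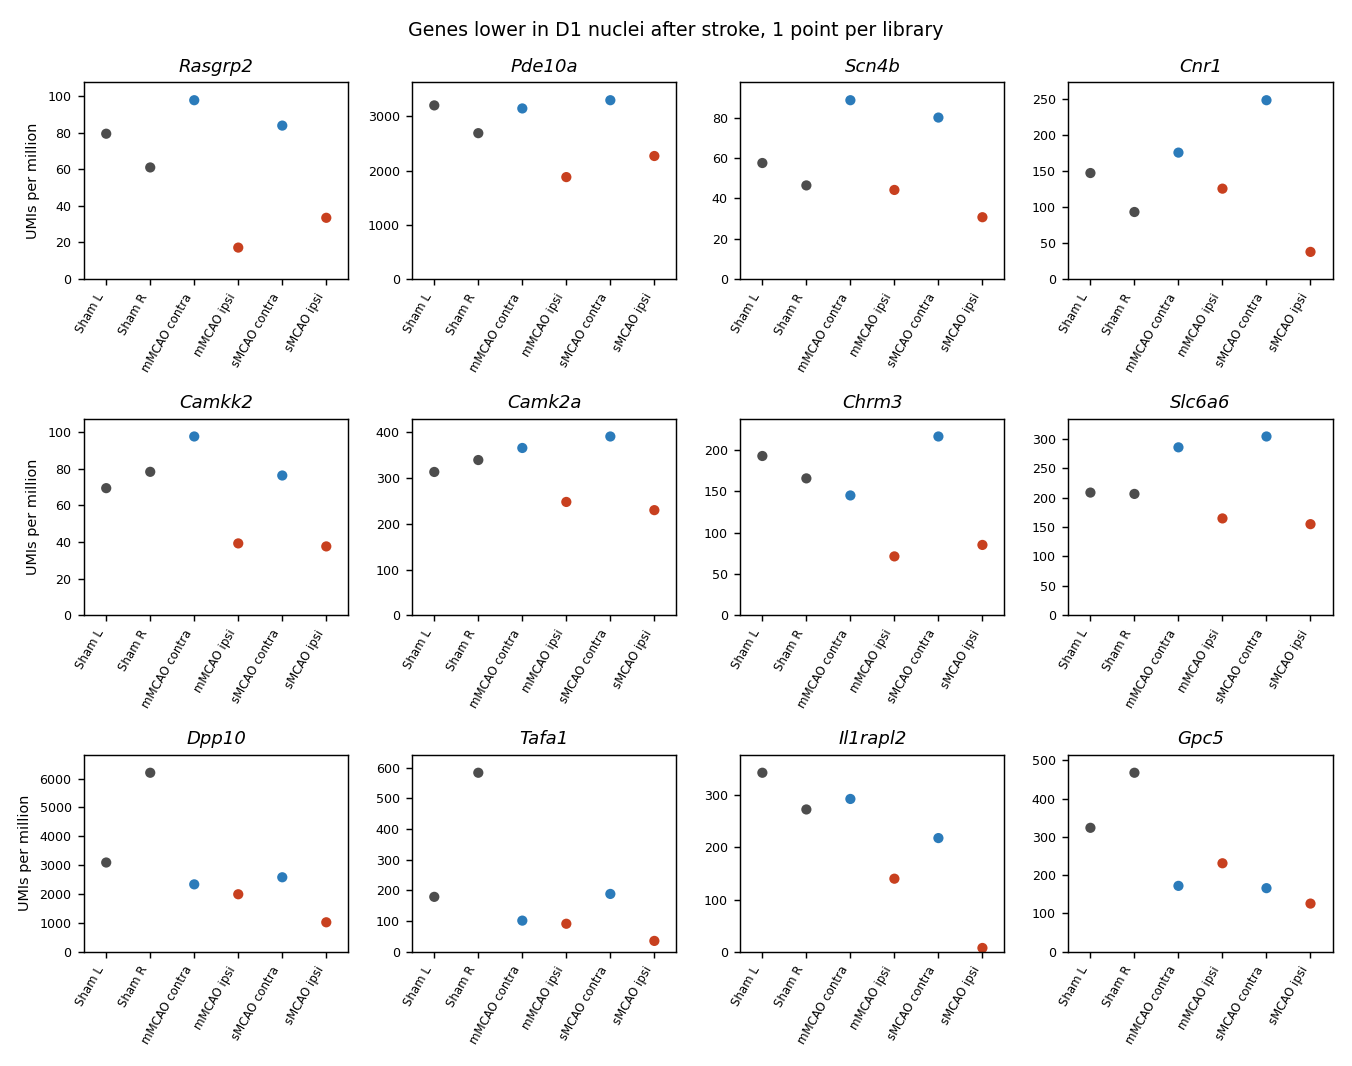
Levels of 12 genes in D1 nuclei by library, in CPM on axes that start at 0, with Sham in grey, MCAO contra in blue and MCAO ipsi in red. Rasgrp2, Pde10a, Scn4b, Camkk2, Camk2a, Chrm3 and Slc6a6 were lower in both MCAO ipsi libraries than in the other 4, while in Cnr1 the mMCAO ipsi value of 125 CPM lay within the Sham range, and Gpc5 was lower in all 4 MCAO libraries than in Sham.

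Against Sham, which asks how the lesioned side differed from rats with no occlusion, 21 of 6765 genes (0.310%) rose and 35 (0.517%) fell in D1 nuclei of MCAO ipsi by the same rule. Without sMCAO ipsi there were 33 rises and 32 falls, of which 25 were among the 56. Unadjusted p was under 0.05 for 358 rises and 439 falls, and DESeq2 called 7 genes. Under the stricter gate 1 gene passed, and 35 did with members thinned to 2000 UMIs. The comparison shares its MCAO ipsi libraries with the one above.

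The falls included the channel genes Dpp10 and Ryr2 and receptor genes. Dpp10, an auxiliary subunit of A-type potassium channels, stood at 3090, 6204, 2332, 1989, 2578 and 1016 CPM and fell by 1.69 ± 0.22 (edgeR adjusted p = 0.000168). Sham R was well above Sham L, and MCAO contra was also under both Sham libraries. Tafa1, a secreted neuronal protein, was at 179, 584, 101, 90.8, 188 and 34.9 CPM and fell by 2.73 ± 0.39 (edgeR adjusted p = 0.000389). In all other nuclei both genes were far more abundant, with Dpp10 at 4729 to 12095 CPM and Tafa1 at 647 to 1300 CPM, each lowest in sMCAO ipsi. The glutamatergic markers in D1 nuclei, led by Cux2 in 5 of 6 libraries and with Neurod6 at 0 in the same 5, stood at 85.3, 119, 65.1, 54.0, 108 and 36.3 CPM, so they moved with both genes, and their part was not tested. The ryanodine receptor gene Ryr2, a calcium release channel, was at 911, 999, 829, 695, 896 and 498 CPM and fell by 0.75 ± 0.14. The metabotropic glutamate receptor gene Grm8 (−0.78 ± 0.16), the AMPA receptor partner Shisa6 (−1.24 ± 0.26) and the GABA-B receptor subunit Gabbr2 (−1.08 ± 0.24) fell too. Rasgrp2 fell by 1.43 ± 0.32 and Il1rapl2 by 2.46 ± 0.42 here as well. The relaxin receptor gene Rxfp1 (−3.26 ± 0.68), Pdzrn3 (−2.21), the G protein regulator Rgs20 (−1.83), Zfpm2 (−1.78), the transcription factor gene Sox5 (−1.66), Sez6l (−1.61) and Zfp804b (−1.53) completed the largest falls.

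The rises included Gad1 and the vesicle genes Synpr and Scg2. Gad1, the enzyme that makes GABA, stood at 167, 122, 186, 290, 155 and 243 CPM, with both lesioned libraries above the other 4, and rose by 0.78 ± 0.19 (edgeR adjusted p = 0.0308). Dach1, a transcriptional regulator chosen after its values were seen, was at 556, 395, 712, 884, 943 and 1128 CPM and rose by 1.02 ± 0.16 (edgeR adjusted p = 0.00149). Its MCAO contra values overlapped those of MCAO ipsi. Ca12, a carbonic anhydrase gene also chosen after its values were seen, rose by 0.92 ± 0.19 against Sham and 0.70 ± 0.17 against MCAO contra. Scg2, a granin of secretory vesicles, was at 7.94, 2.90, 14.6, 49.1, 29.8 and 44.6 CPM and rose by 2.89 ± 0.56. The Sham values of Scg2, and of Fth1 given next, rest on few UMIs. For both genes, both MCAO contra values lay above both Sham values. Fth1, the iron storage protein ferritin heavy chain, was at 5.95, 14.5, 29.2, 34.4, 33.5 and 117 CPM and rose by 3.07 ± 0.53 (edgeR adjusted p = 0.00255), and by 1.43 ± 0.36 against MCAO contra, a value chosen after it was seen. Its level in all other nuclei, 13.2, 16.4, 32.4, 41.1, 40.3 and 220 CPM, followed the same order, with sMCAO ipsi highest. Tf (1.85 ± 0.37), the lipid carrier gene Apoe (3.47 ± 0.80), Dock8 (2.84 ± 0.55), Lrmda (1.86), the interferon gamma receptor gene Ifngr1 (2.23), Zc3h10 (1.82), Dcdc2c (2.40) and the ribosomal protein gene Rpl9 (3.02) rose as well, the last 2 being uncertain because several gene identifiers share the symbol.

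Without members that carried 3 or more UMIs of other types, 21 genes passed in place of 56. Of the 28 named calls still measured, 12 remained, namely Fth1, Scg2, Dcdc2c, Tafa1, Il1rapl2, Dpp10, Rasgrp2, Shisa6, Synpr, Dach1, Ca12 and Chrm3. Leaving out mMCAO ipsi raised the count to 147, while leaving out any other library gave 57 to 73. Of the 31 calls named, 13 remained without sMCAO ipsi, 17 without Sham R and 20 without Sham L. With members thinned, 12 of the 23 named calls still measured remained (Chrm3, Dach1, Dpp10, Gabbr2, Grm8, Il1rapl2, Lrmda, Ryr2, Shisa6, Synpr, Tafa1 and Zfp804b), and those of Gad1, Rasgrp2, Scg2, Kif17 and Tf were among the 11 lost. Without the Adarb2-high members 38 genes passed, 19 rises and 19 falls, of which 21 were among the 56. Of the 26 named calls still measured there, 10 remained (Ca12, Dach1, Dcdc2c, Dpp10, Fth1, Gad1, Il1rapl2, Rasgrp2, Shisa6 and Synpr) and 16 were lost, among them those of Tafa1, Chrm3, Ryr2, Grm8, Gabbr2 and Scg2. DESeq2 gave an adjusted p for only 4 of the 31 named calls, and 3 of these remained. The rest of the 31 were not called in DESeq2. Under the stricter gate 1 of the 11 still measured remained.

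In the contralateral hemisphere a single gene passed against Sham in D1 nuclei. Of 6765 genes, 0 (0%) rose and 1 (0.0148%) fell in edgeR, with unadjusted p under 0.05 for 229 rises and 269 falls, and DESeq2 called 0. The gene was Gpc5, a heparan sulfate proteoglycan, at 324, 467, 172, 231, 166 and 125 CPM, which fell by 1.25 ± 0.20 (edgeR adjusted p = 0.00579). Its level in all other nuclei was 653 to 727 CPM. Gpc5 is also abundant in astrocytes. The 6 astrocyte markers in D1 nuclei stood at 43.7, 84.2, 31.4, 44.2, 50.3 and 69.7 CPM, with Aldh1l1 at 0 in all 6 libraries. Slc1a2, the most abundant of them in Sham and MCAO contra, was at 31.8, 58.1, 20.2, 12.3, 29.8 and 29.3 CPM, likewise lower in all 4 MCAO libraries than in Sham. The total of the 6 markers did not follow it, since mMCAO ipsi, sMCAO contra and sMCAO ipsi lay above Sham L. The part of astrocyte RNA in the fall of Gpc5 was not tested. The call was kept when any of the 6 libraries was left out and was lost in DESeq2, under the stricter gate, and without the highest doublet scores, the other-type members or the Adarb2-high members. The count itself was 22, 9, 7, 25, 2 and 23 when the libraries were left out in the order above.

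Gene lists of striatal function gave few calls. Of 20 measured pan medium spiny neuron genes, 3 fell against MCAO contra (Rasgrp2, Pde10a and Scn4b) and 1 against Sham in edgeR, where 0.370% and 0.517% of all genes fell. DESeq2 called 0 in both. The median log2 change of these genes was −0.27 and −0.02, where that over all genes tested was 0.01 and 0.00. Between MCAO contra and Sham, where 0 passed, their median was 0.20 and 15 of 20 were positive. Of 27 genes of dopamine and cAMP signalling, 2 fell against MCAO contra in edgeR, both also in the list before, and 1 against Sham, while DESeq2 called 0 in both. The medians were −0.11 and −0.03. Of the 8 measured D1 identity genes, 0 passed in edgeR and 0 in DESeq2 in each comparison between groups, with 2 at an unadjusted p under 0.05 for a rise against Sham, 1 for a rise and 1 for a fall against MCAO contra, and 3 for a rise between MCAO contra and Sham, where 5.29%, 5.81% (rises), 5.53% (falls) and 3.39% of all genes were so. The 8 patch and 5 matrix genes also gave 0 calls in both tools, with 3 and 0 at an unadjusted p under 0.05 against Sham in either direction. Over all genes, 5.29% rose and 6.49% fell against Sham at that unadjusted p. Of 15 genes of neuropeptides and their receptors, 1 (Cnr1) fell against MCAO contra in edgeR and 0 passed against Sham, where 1 rise and 3 falls had an unadjusted p under 0.05. DESeq2 called 0 of these 15 in both.

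Of 35 potassium channel genes, 1 (Dpp10) fell against Sham in edgeR and 0 passed against MCAO contra, and DESeq2 called 0 in both. The median log2 change was −0.34 and −0.27, and 9 and 4 genes were positive. Unadjusted p was under 0.05 for 14 and 12 falls and for 0 rises, where it was so for 6.49% and 5.53% of all genes as falls and 5.29% and 5.81% as rises. Of 43 glutamate receptor genes, 2 fell against Sham in edgeR (Grm8 and Shisa6), with 1 rise and 11 falls at an unadjusted p under 0.05 and a median of −0.21. Against MCAO contra 0 passed, with 1 rise and 7 falls at an unadjusted p under 0.05 and a median of −0.16. DESeq2 called 0 of these 43 in both. Of 20 genes of GABA synthesis and GABA receptors, Gad1 rose and Gabbr2 fell against Sham and 0 passed against MCAO contra, where 4 rises and 4 falls had an unadjusted p under 0.05, and DESeq2 called 0 in both. Of 33 sodium and calcium channel genes, Ryr2 fell against Sham and Scn4b against MCAO contra, with medians of −0.10 and −0.22. Unadjusted p was under 0.05 for 3 rises and 7 falls against Sham and for 3 rises and 8 falls against MCAO contra. DESeq2 called 1 and 0. Over all genes, edgeR called 0.310% as rises and 0.517% as falls against Sham, and 0.488% and 0.370% against MCAO contra. Lists of cell stress gave 0 calls in edgeR and DESeq2. These were 14 heat shock genes (medians 0.06 against Sham and 0.12 against MCAO contra), 8 genes of the integrated and endoplasmic reticulum stress response (0.29 and 0.32), 15 of glycolysis (−0.15 and −0.15), 13 of oxidative phosphorylation (0.23 and 0.24) and 5 of neuronal injury (0.53 and 0.58). In the injury list, 3 genes had an unadjusted p under 0.05 for a rise in each comparison. Against Sham, the number with an unadjusted p under 0.05 in either direction was 1, 1, 0 and 0 in the other lists in the order given. Against MCAO contra it was 1, 2, 1 and 0. There all 8 genes of the integrated and endoplasmic reticulum stress response were positive, 2 of them rises at an unadjusted p under 0.05, and 4 of 15 of glycolysis were positive. Only 2 of the 22 immediate early genes had enough UMIs to be measured.

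Whether D1 and D2 nuclei differed in their response to the lesion was tested as an interaction over 9709 genes in 12 sums. The difference between the cell types changed for 2 genes (0.0206%), Erbb4 and Rgs6, in the direction of higher values in D1 nuclei, and for 0 (0%) in the other (edgeR, with unadjusted p under 0.05 for 248 and 215 genes). DESeq2 called 0. Erbb4, the neuregulin receptor, stood at 1931, 2082, 1746, 2119, 1079 and 1797 CPM in D1 nuclei, where MCAO ipsi overlapped Sham. In D2 nuclei it was at 700, 754, 430, 379, 478 and 333 CPM, lower in both lesioned libraries than in both Sham libraries, and in both MCAO contra libraries too. The change from Sham to MCAO ipsi was 1.0 ± 0.15 larger in D1 nuclei (log2, SE; edgeR adjusted p = 0.000261). Rgs6, a regulator that shortens G protein signals, was at 228, 319, 243, 383, 263 and 305 CPM in D1 nuclei and at 210, 217, 103, 162, 109 and 68.5 CPM in D2 nuclei, where all 4 MCAO libraries were below Sham, and its change was 1.30 ± 0.20 larger in D1 nuclei (edgeR adjusted p = 0.000594). Its call was lost without Sham L and without sMCAO ipsi. The count was 5 without Sham R, 8 without mMCAO contra and 12 without mMCAO ipsi, and 1 under the stricter gate.

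**Figure D5:**
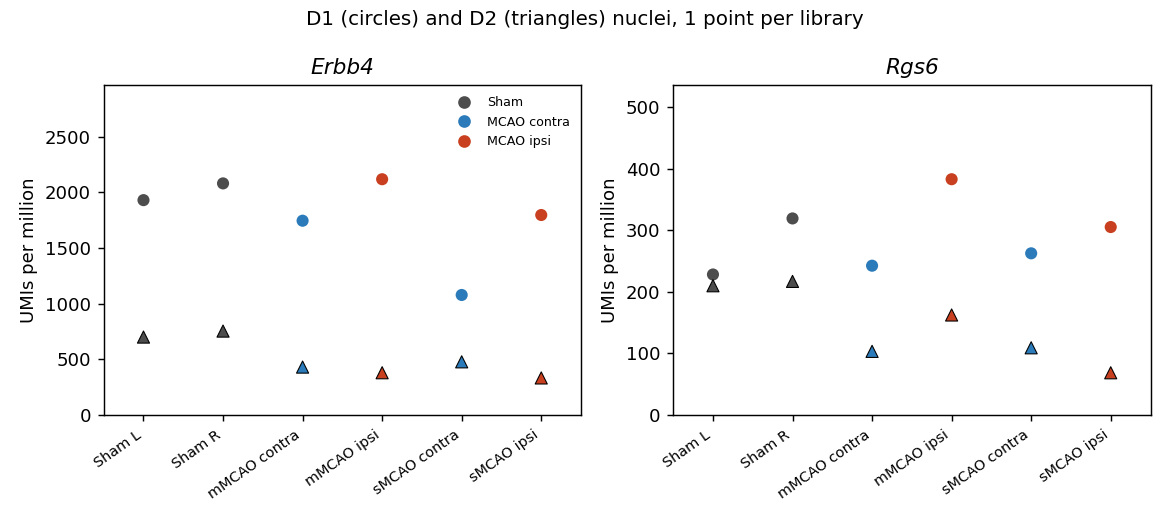
Levels of Erbb4 and Rgs6 by library in D1 nuclei (circles) and D2 nuclei (triangles), in CPM, with Sham in grey, MCAO contra in blue and MCAO ipsi in red. In D2 nuclei both genes were lower in all 4 MCAO libraries, contralateral ones included, than in the 2 Sham libraries, while in D1 nuclei MCAO ipsi and Sham overlapped.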

How the data were processed

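The authors prepared nuclei on an iodixanol gradient, made 10x Genomics libraries and deposited raw UMI counts per gene and nucleus from Cell Ranger 7.0.0 on mRatBN7.2, with introns counted. Their correction for free RNA, filters and doublet removal came after these counts. Here 30560 genes were read in 6 libraries, the limits stated above were applied, and UMIs of D1 and of D2 nuclei were summed per library, since nuclei are not replicates. Doublets were scored with simulated doublets but not removed, and a set without the highest 5% of scores was an alternative. Sums were tested with edgeR 4.0.16 (TMM, low-count filter, quasi-likelihood F test, 3 residual degrees of freedom) in R 4.3.3, with DESeq2 1.42.0 as an alternative, after a run on simulated data. The study itself tested nuclei. Named genes were the 10 largest called rises and 10 largest falls with at least 20 CPM, up to 5 each way for the interaction, and up to 4 called members of each list. Members and lists were chosen with earlier results of these data known. The hemispheres of a rat set share rats, so the pairing comes from the design. For mMCAO the deviations from the group means correlated at r = 0.00241 over 6775 genes. With 2 libraries a group the deviations mirror each other, so mMCAO contra and sMCAO ipsi gave −0.00241 by construction. This value cannot show whether hemispheres of the same rats are alike.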

Additional observations from a re-analysis of the deposited data

Results flagged for a closer look

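For 2 genes the change from Sham to MCAO ipsi differed between D1 and D2 nuclei in the test of that difference. The change in D1 nuclei minus that in D2 nuclei was 1.30 (log2) for Rgs6 and 1.0 for Erbb4. In D2 nuclei both genes were lower in both MCAO ipsi libraries than in both Sham libraries. In D1 nuclei alone, the change against Sham was 0.28 ± 0.17 for Rgs6 and −0.09 ± 0.15 for Erbb4, and neither passed the test. Both calls were lost in DESeq2 and under the stricter gate, and that of Rgs6 also with nuclei thinned to 2000 UMIs.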

How the results depend on the processing

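RLE scaling gave 56, 58 and 1 called genes for MCAO ipsi against Sham, MCAO ipsi against MCAO contra and MCAO contra against Sham, as TMM did. In this order DESeq2 called 7, 2 and 0, the stricter gate (7 to 29 D1 nuclei a library) 1, 3 and 0, members thinned to 2000 UMIs 35, 35 and 5, and the set without other-type members 21, 28 and 0. Without a filter on low counts 104, 87 and 21 passed, without the highest doublet scores 59, 63 and 5, without Adarb2-high members (an alternative chosen after seeing the data) 38, 59 and 0, and with only the 2 groups in the fit 39, 64 and 14. Leaving out each library in turn gave 57 to 147, 18 to 100 and 2 to 25, with a lone library of a group assumed to vary like the other groups. For the D1 against D2 difference in response the counts were 0 in DESeq2, 1 under the stricter gate, 1 after thinning, 12 without the filter and 8 without the highest doublet scores, and 2 to 12 with a library left out. D1 against D2 gave 226 genes, 150 under the stricter gate, where Lypd1 (−0.20) and Slc1a2 (0.06) turned direction, and 205 to 228 with a library left out. With the rat pool as a replicate block, MCAO ipsi against MCAO contra gave 47 genes, of which 44 were shared with the fit without it, and of the 27 named calls Lyn, Dcdc2c, Slc26a8, Ca12 and Fth1 were lost. Without the library as a replicate block, D1 against D2 gave 199. The share ratio for severe infarction moved from 0.928 to 1.48 under the stricter gate and 1.87 among neurons, where it was 1.03 after thinning to 2000 UMIs (added after seeing the data), and the Sham ratio from 0.773 to 0.397 under the stricter gate. The split of MCAO ipsi against Sham, 21 rises and 35 falls, was 33 and 32 without sMCAO ipsi, 19 and 19 without Adarb2-high members and 17 and 42 without the highest doublet scores. The cause of these moves was not tested. With 7 to 29 nuclei a library, the stricter gate leaves few UMIs to test.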
